A study of Mus musculus with 12 samples.

Results

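The genes described here are 10 genes of the stomach lining whose transcripts are used as markers of gastric-type differentiation in serrated tumors: Anxa10, Muc5ac, Muc6, Tff1, Tff2, Aqp5, Gkn1, Gkn2, Vsig1 and Ctse. The rule is a list of names and uses no measured value. They make up 10 of the 24906 genes listed in each of the deposited expression tables. All 10 are in both tables. RNA-Seq was performed on 12 libraries of mouse tumor organoids, which are epithelial cell clusters grown in culture. The organoids were derived from small intestinal tumors of mice carrying the genotype Smad4KO;BRAFV600E/+, in which a Villin-CreERT2 allele restricts recombination to gut epithelium, and the genotype label of every library names the lentiviral pINDUCER-SMAD4 construct, from which doxycycline (dox) induces SMAD4. Untreated libraries therefore share with the dox libraries the Smad4 deletion, the activated BRAF allele and, by that label, the construct. The dox dose was 4 μg/mL, and exposure lasted 48 h before RNA was taken. Organoids were embedded in BME, a basement membrane extract, or seeded on tissue culture plastic.

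In BME, lines 682, 700 and 889 each have an untreated library (n = 3), and lines 700 and 889 also have a dox library (n = 2). The remaining BME library, of line 682, carries the treatment label of dox qualified as mock. Its title and genotype read like those of an induced library, and whether its mock label refers to the construct or to the treatment is not stated. The study's methods use the word for a control plasmid in the lentiviral transduction, which is not tied there to this library. It is therefore kept apart in all pair values and counted with the controls in the fit, as the study's group sizes imply. The plastic table holds 3 untreated and 3 dox libraries (lines 560, 700 and 889). Lines 700 and 889 occur in both environments. Lines are known by the numbers in the titles, and no label says how they relate to animals, so p-values measure the spread between these libraries. Depth, as rebuilt from the tables, ran from 14531214 to 16335937 reads for BME libraries and from 17021550 to 21068260 for plastic ones. Smad4 was listed at 6.23 to 8.88 FPKM in untreated BME libraries, 10.3 in the mock library, 17.2 to 27.3 with dox in BME, 1.54 to 4.76 untreated on plastic and 18.1 to 73.6 with dox on plastic. What share of the construct's reads was assigned to mouse Smad4 is not given in the sources used here. FPKM is a level scaled for transcript length and for the depth of the library. Epithelial identity was checked with Epcam, Cdh1, Krt8, Krt18 and Krt19, whose summed level was 3708 FPKM or more in every library. Fibroblast markers summed to at most 5.79 FPKM, endothelial markers to at most 3.65 and immune markers to at most 39.3, of which Cd68 made up most, while Ptprc, the pan-leukocyte surface marker, reached at most 0.0958 in any library.

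Most of the intestinal lining makes little of these products, although the Brunner's glands of the duodenum also secrete Muc6 and Tff2. In the stomach, surface pit cells secrete the mucin Muc5ac with the trefoil peptide Tff1 and the gastrokines Gkn1 and Gkn2, while deeper gland cells secrete Muc6 with Tff2. Serrated polyps of the colon often take on this pattern, called gastric metaplasia, and Anxa10, an annexin that binds membranes in the presence of calcium, is used in pathology as a marker of such lesions. Vsig1 is an immunoglobulin-family adhesion protein of gastric epithelial junctions, Ctse (cathepsin E) is an intracellular aspartic protease abundant in surface mucous cells, and Aqp5 is a water channel of secretory glands that marks stem cells of the gastric antrum.

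The promoters below are shown because the dox design asks about a transcription factor, SMAD4, and because these 4 genes were measured above the filter in both environments. Of the 10 genes, 6 matched an entry of the RefSeq promoter table (GRCm38.p6), namely Anxa10, Muc6, Aqp5, Gkn1, Gkn2 and Vsig1, and Muc5ac, Tff1, Tff2 and Ctse did not. Each line gives the 250 bases before the annotated start in the direction of transcription: Anxa10 at chr8:62123194-62123443 on the minus strand, Gkn1 at chr6:87350916-87351165 on the minus strand, Aqp5 at chr15:99590778-99591027 on the plus strand and Vsig1 at chrX:140907358-140907607 on the plus strand. Capitals mark CAGAC or its reverse complement GTCTG, the short element bound by SMAD proteins, and TGANTCA, the element bound by AP-1 factors downstream of MAPK signalling.
Anxa10: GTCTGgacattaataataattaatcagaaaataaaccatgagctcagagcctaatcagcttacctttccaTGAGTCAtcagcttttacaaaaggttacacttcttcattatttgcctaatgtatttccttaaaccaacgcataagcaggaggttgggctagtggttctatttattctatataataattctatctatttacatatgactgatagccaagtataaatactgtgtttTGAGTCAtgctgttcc
Gkn1: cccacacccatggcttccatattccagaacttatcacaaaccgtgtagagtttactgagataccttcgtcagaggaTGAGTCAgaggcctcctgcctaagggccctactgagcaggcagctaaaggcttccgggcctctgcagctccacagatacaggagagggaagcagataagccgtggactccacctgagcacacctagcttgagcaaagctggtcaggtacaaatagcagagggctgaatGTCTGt
Aqp5: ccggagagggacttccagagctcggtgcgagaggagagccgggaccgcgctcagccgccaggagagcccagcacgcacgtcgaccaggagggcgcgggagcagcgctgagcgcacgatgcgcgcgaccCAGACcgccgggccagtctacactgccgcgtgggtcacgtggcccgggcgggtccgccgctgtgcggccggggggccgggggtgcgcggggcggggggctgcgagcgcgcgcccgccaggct
Vsig1: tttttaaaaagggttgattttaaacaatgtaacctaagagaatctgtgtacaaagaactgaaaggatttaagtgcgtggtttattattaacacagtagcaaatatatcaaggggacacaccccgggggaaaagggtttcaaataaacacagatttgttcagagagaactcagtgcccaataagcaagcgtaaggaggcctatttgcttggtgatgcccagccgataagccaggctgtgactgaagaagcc

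CAGAC on either strand was present in 5 of the 6 matched promoters, against 42.2% of all 32841 RefSeq promoters of the same length. The 4 printed promoters held 1 match in Anxa10, 250 bases before the start, 1 in Gkn1, 6 bases before it, 1 in Aqp5, 122 bases before it, and 0 in Vsig1. TGANTCA was found in 2 of the 6, against 6.75% of all promoters. Anxa10 held it 180 and 16 bases before the start and Gkn1 held it 174 bases before the start, each time as TGAGTCA. The palindrome GTCTAGAC, present in 0.167% of all promoters, was in 0 of the 6. No capital stretch overlaps another. Base composition also differed, from 33.6% G or C in Anxa10 to 78.4% in Aqp5. These matches are letters in a window, and no binding was measured here.

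Levels divided the 10 genes into those the organoids made and those they barely made. The test covered genes averaging 0.5 FPKM or more across a table's 6 libraries, which were 12996 genes in BME and 12333 on plastic. Anxa10, Aqp5, Gkn1, Vsig1 and Ctse passed in both, Tff2 passed in BME alone, and Muc5ac, Muc6, Tff1 and Gkn2 passed in neither. With dox, 0 of the 6 tested in BME and 0 of the 5 tested on plastic met an adjusted p under 0.05 with a change over 1 on the log2(FPKM + 1) scale (limma, Benjamini-Hochberg over all genes tested), against 0.0231% of all tested genes in BME and 0.0324% on plastic. Limma-voom on the rebuilt reads also called 0 gastric genes in each environment. Where the unadjusted p was below 0.05 and the change over 1, Gkn1 was the one gastric gene higher in BME (0.746% of all tested genes were higher by this rule) and Ctse the one higher on plastic (2.37%). The median limma change of the tested gastric genes was -0.06 in BME and 0.33 on plastic, beside -0.01 and 0.01 over all tested genes. Of the gastric genes 3 of 6 in BME and 4 of 5 on plastic were above 0, beside 49.0% and 51.1% of all tested genes. In these bulk libraries, fewer cells of a type and less RNA per cell cannot be told apart.

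**Figure D1:**
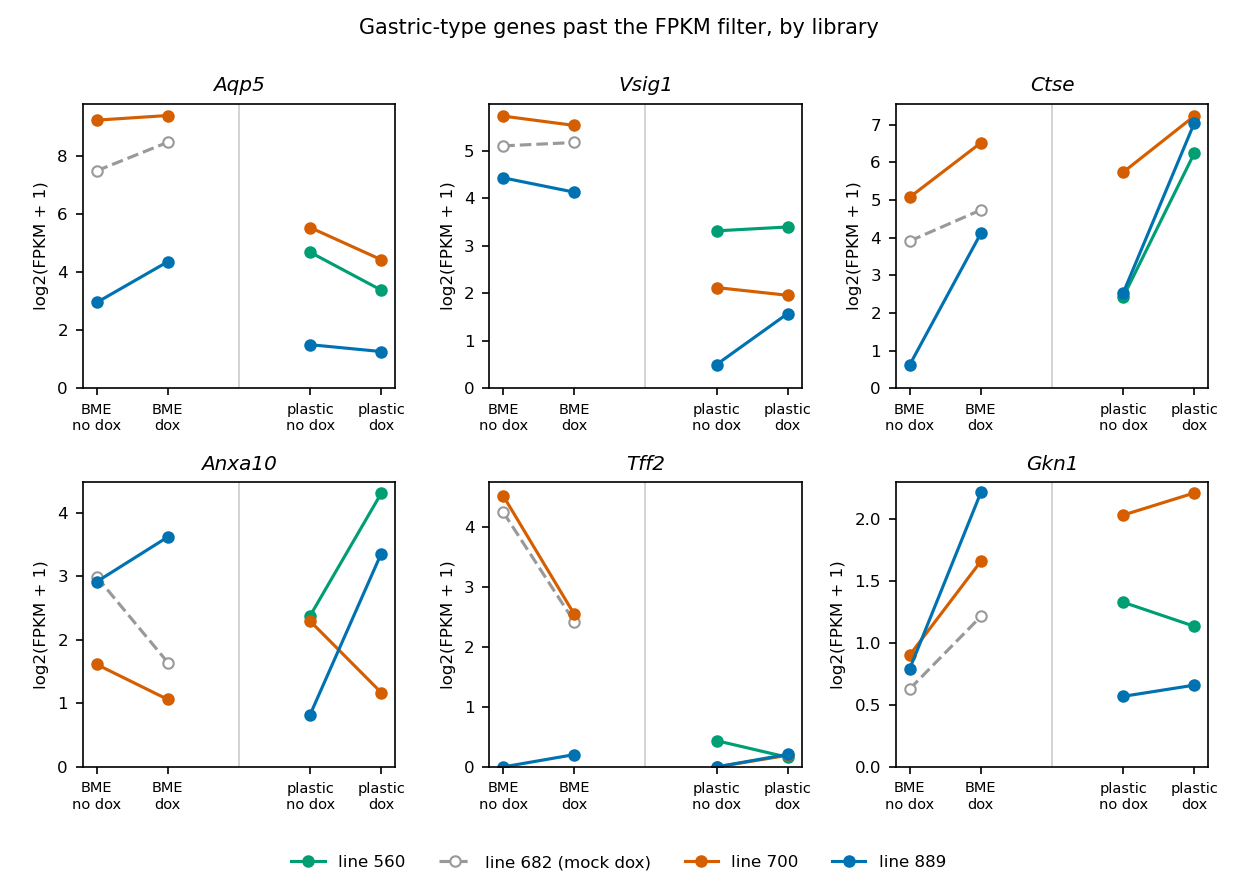
Level of the 6 gastric-type genes that passed the filter in at least one table, as log2(FPKM + 1) on the vertical axis, in each library. Points of the same line and environment are joined from no dox to dox, the open grey points are line 682 with its mock dox library, and BME and plastic values come from tables normalized separately. Ctse points slope upward in every pair, while Anxa10 slopes downward in lines 682 and 700 and upward in the others.

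Ctse was the gastric gene that was higher with dox in every pair. It lies on chromosome 1 from 133534883 to 133572080 (NCBIM37). In BME it was at 32.8 FPKM untreated and 90.9 with dox in line 700, and at 0.543 untreated and 16.4 with dox in line 889. On plastic it was at 4.36 and 74.6 in line 560, 52.4 and 149 in line 700, and 4.76 and 131 in line 889. The dox libraries on plastic all lay above the untreated ones, as was so for 7.87% of tested genes, and in BME the groups overlapped because the dox library of line 889 sat below 2 of the 4 controls.

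As ratios of FPKM, dox over untreated, the pairs were 2.78 and 30.2 in BME and 17.1, 2.85 and 27.4 on plastic. The larger ratios belonged to the libraries that began low. Line 700, which already held 32.8 and 52.4 FPKM of Ctse without dox, had the smaller ratio of the dox pairs in each environment. An increase of over 0.5 on the log2(FPKM + 1) scale in all 5 dox pairs was met by 88 of the 11977 genes tested in both tables (0.735%), Ctse among them. In the mock pair of line 682 Ctse was at 14.1 untreated and 25.7 in the mock library, a change of 0.83, so a smaller change in the same direction was present where Smad4 was at 10.3 FPKM.

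The limma change of Ctse on plastic was 3.27 (SE 0.89, 95% interval 1.14 to 5.41, n = 3 against 3), with an unadjusted p of 0.00886 and an adjusted p of 0.432 over all genes tested by limma. In BME it was 1.73 (SE 1.35, 95% interval -1.54 to 5.01, n = 2 against 4), with an adjusted p of 0.959. With the organoid line as a block, the change in BME was 2.47 (SE 0.54), and the unadjusted p of 0.246 became 0.00646, with an adjusted limma p of 0.671. On plastic the blocked fit gave the same 3.27 with an SE of 0.59 and an adjusted limma p of 0.158. Without the untreated plastic library of line 700, the one with the high starting level, the change was 4.36 and the adjusted limma p was 0.0632. Leaving out any other single plastic library gave changes from 2.70, without the untreated library of line 560, to 3.57, without the dox library of that line, with adjusted limma p-values from 0.367 to 0.999. Without a single BME library the change ranged from 0.53, without the dox library of line 700, to 2.93, without that of line 889.

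Gkn1, a secreted gastrokine, was measured at low levels. The gene lies on chromosome 6 from 87295647 to 87300917 (NCBIM37), 22.4 kb from Gkn2. In BME it was at 0.869 FPKM untreated and 2.15 with dox in line 700, and at 0.732 and 3.63 in line 889, which correspond to 14 and 31 rebuilt reads in line 700 and 13 and 63 in line 889. Line 682 held 0.546 FPKM untreated and 1.32 in the mock library, or 9 and 21 reads. Both BME dox libraries lay above all 4 controls, as 6.33% of tested genes did, and the mock library was the highest of the controls.

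The limma change of Gkn1 in BME was 1.05 (SE 0.26, 95% interval 0.42 to 1.68), with an unadjusted p of 0.00609 and an adjusted limma p of 0.959. Under the alternatives it ranged from 0.77 to 1.67. It was under 1, and so no longer met the unadjusted rule, without the dox library of line 889 (0.77), with the mock library counted with dox (0.92) and without the untreated library of line 682 (0.97). On plastic, Gkn1 was at 1.51 FPKM untreated and 1.19 with dox in line 560, 3.08 and 3.62 in line 700, and 0.483 and 0.579 in line 889, so differences between lines exceeded those with dox. The plastic change was 0.02 (SE 0.52, 95% interval -1.22 to 1.27). The difference of the dox change, plastic minus BME, was -1.03 (SE 0.63, 95% interval -2.42 to 0.36) with an adjusted p of 1.000 in the limma interaction fit, where 0 of 11977 genes were called and 1.33% met the unadjusted rule. Ctse and Gkn1 were both higher by over 0.5 in the 2 dox pairs of BME, a rule met upward by 2.09% of tested genes.

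**Figure D2:**
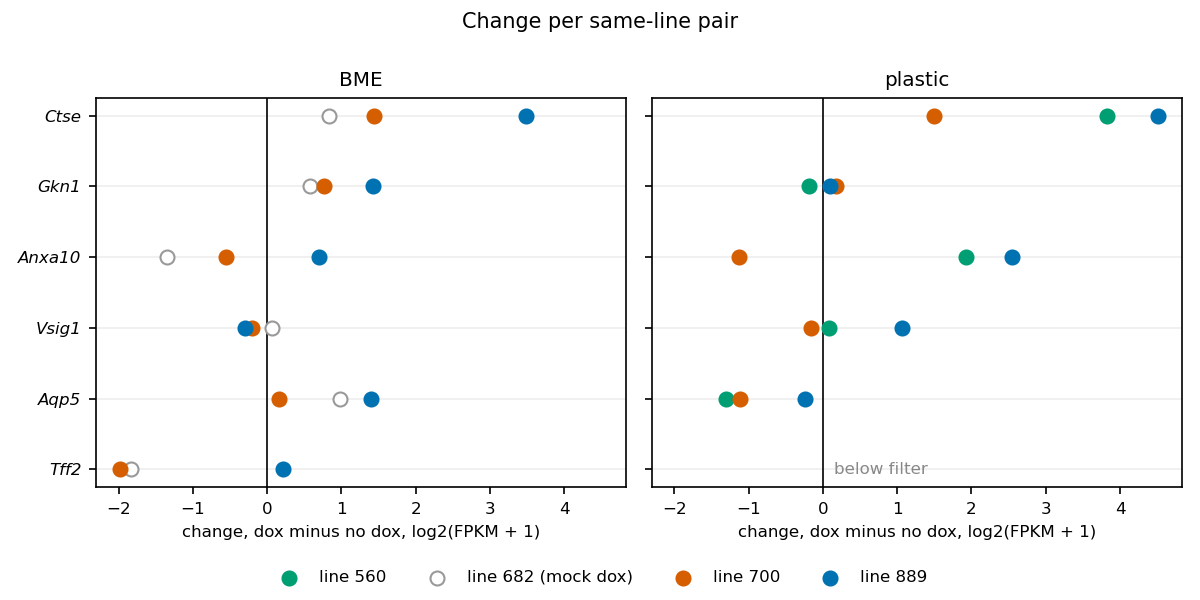
Change of each tested gastric-type gene in every same-line pair, dox minus no dox, on the log2(FPKM + 1) scale of the horizontal axis, for BME (left) and plastic (right). Each point is 1 library against 1, coloured by line, and the open points are the mock pair of line 682. Ctse lies right of 0 in all pairs, from 0.83 in the mock pair to 4.51 in line 889 on plastic, and Anxa10 lies on both sides of 0.

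Anxa10, the annexin of serrated lesions, was higher with dox in some lines and lower in others. It lies on chromosome 8 from 64535839 to 64601915 (NCBIM37). In line 700 it was at 2.06 FPKM untreated and 1.09 with dox in BME, and at 3.92 and 1.25 on plastic. In line 889 it was at 6.56 and 11.3 in BME, and at 0.768 and 9.26 on plastic. Line 560 on plastic held 4.20 untreated and 18.8 with dox, and line 682 in BME held 6.96 untreated and 2.12 in the mock library.

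The changes of Anxa10 were thus -0.55 and -1.13 in line 700, 0.70 and 2.54 in line 889, 1.93 in line 560 and -1.35 in the mock pair. A decrease of over 0.5 in line 700 with an increase of over 0.5 in line 889 in both environments was met by 9 of 11977 genes (0.0751%), a pattern chosen after these values were seen and given as a description. The limma changes over lines were 0.05 (SE 0.79, 95% interval -1.85 to 1.95) in BME and 1.11 (SE 0.84, 95% interval -0.90 to 3.13, adjusted p 0.794) on plastic. The BME value lay at 0 within its error and changed sign under several alternatives, from -1.23 without the dox library of line 889 to 1.33 without that of line 700. The plastic value was 0.43 without the dox library of line 560, and without that of line 700 it was larger and met the unadjusted rule (SE 0.58, unadjusted p 0.0137, adjusted limma p 0.404). On plastic the dox and untreated libraries overlapped, since the dox library of line 700 lay below 2 of the 3 untreated ones.

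Aqp5, the water channel, had the highest level of any gastric gene in a single library and, in untreated BME libraries, the widest ratio between lines of the gastric genes detected in all of them. It lies on chromosome 15 from 99421280 to 99425260 (NCBIM37). Line 700 in BME held 596 FPKM untreated and 666 with dox, and line 682 held 178 untreated and 352 in the mock library. Line 889 in BME held 6.74 untreated and 19.5 with dox, so that untreated lines differed 88.4-fold. On plastic the values without and with dox were 24.6 and 9.39 in line 560, 45.2 and 20.5 in line 700, and 1.83 and 1.40 in line 889.

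Every BME pair of Aqp5 was higher in the dox or mock library, with changes of 0.16, 1.40 and, for the mock pair, 0.98. Every plastic pair was lower with dox, with changes of -1.30, -1.11 and -0.24. The test of that difference, plastic minus BME, gave -0.72 (SE 2.59, 95% interval -6.45 to 5.01) with an unadjusted p of 0.787 in the limma interaction fit, and with the organoid line as a block it gave -1.66 (SE 0.83, unadjusted p 0.0797, adjusted limma p 0.994). The spread between lines was part of the error in the first fit: the BME change of Aqp5 was -0.16 (SE 2.08) without the block and 0.78 (SE 0.44) with it, and on plastic -0.88 had an SE of 1.21 without the block and 0.27 with it. Single libraries set the size of the plastic value, which was -0.00 without the dox library of line 889, -0.07 without the untreated library of line 700 and -2.08 without the untreated library of line 889. Of all tested genes, 48.1% to 50.5% were higher in any given pair. The share higher in every BME pair and lower in every plastic pair was not computed.

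Vsig1, the junction protein, differed by at most 0.30 on the log2(FPKM + 1) scale between the libraries of each pair, except in line 889 on plastic (1.07). It lies on chromosome X from 137442147 to 137474011 (NCBIM37). In BME it was at 51.9 FPKM untreated and 45.2 with dox in line 700, 20.5 and 16.4 in line 889, and 33.3 and 35.0 in line 682 and its mock library. On plastic it was at 8.93 and 9.51 in line 560, 3.34 and 2.88 in line 700, and 0.415 and 1.97 in line 889. The limma change was -0.28 (SE 0.48, 95% interval -1.44 to 0.88) in BME and 0.33 (SE 0.79, 95% interval -1.55 to 2.21) on plastic, so a decrease of over 1 lies within both intervals and an increase of over 1 within the plastic one.

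Levels in BME and on plastic come from tables normalized separately and are set side by side without a test. In untreated line 700, Aqp5 was listed 13.2-fold and Vsig1 15.5-fold higher in BME than on plastic, and in untreated line 889 the ratios were 3.69 and 49.4. Ctse went the other way, at 0.625 and 0.114 of its plastic level in lines 700 and 889. Tff2 was at 22.0 FPKM in untreated line 700 in BME and at 0 on plastic. Anxa10 had no common direction, with BME over plastic ratios of 0.526 in line 700 and 8.53 in line 889.

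**Figure D3:**
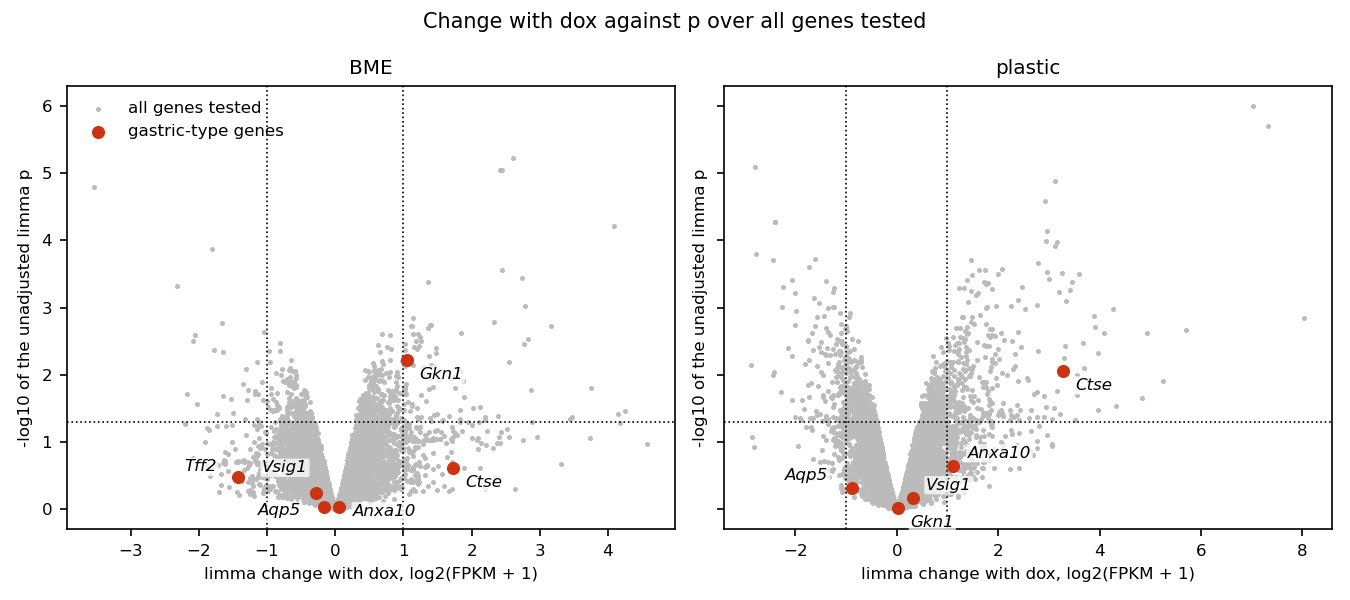
Change with dox by limma on log2(FPKM + 1) (horizontal axis) against −log10 of the unadjusted limma p (vertical axis) for every tested gene, BME left and plastic right. Grey points are all tested genes, red points the gastric-type genes, and dotted lines mark an unadjusted p of 0.05 and changes of 1 in either direction. Gkn1 in BME and Ctse on plastic lie past both lines, at changes of 1.05 and 3.27, within the cloud of all genes.

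Tff2, the trefoil peptide of mucous gland cells, was made by lines 682 and 700 in BME. It lies on chromosome 17 from 31277994 to 31281227 (NCBIM37), 17.1 kb from Tff1. Line 700 held 22.0 FPKM untreated and 4.83 with dox, or 133 and 26 reads. Line 682 held 18.0 untreated and 4.35 in the mock library, or 111 and 26 reads. Line 889 held 0 and 1 read, and on plastic the highest value was 0.354 FPKM, or 3 reads. Tff2 was thus lower by similar amounts in the dox pair of line 700 (-1.98) and in the mock pair (-1.83), and the limma change of -1.42 (SE 1.38, 95% interval -4.75 to 1.91, adjusted p 0.959) did not pass. It ran from -0.25 without the dox library of line 889 to -2.59 without that of line 700, and without the untreated library of line 889, which had 0 reads, it was -2.35 with an unadjusted p of 0.0450 and an adjusted limma p of 0.659.

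The neighbouring trefoil gene Tff3, which goblet cells of the intestine make, was at 605 FPKM untreated and 52.9 with dox in line 700, 1289 and 462 in line 889, and 1114 and 21.4 in line 682 and its mock library. Of 19 tested intestinal epithelium genes, 6 were lower by over 0.5 in both BME dox pairs (1.18% of all tested genes were): Tff3, Muc2, Fcgbp, Clca1 and Zg16, all products of goblet cells, and the peptide hormone gene Guca2a. None of these was called in the limma fit without a line block, which ignores the pairs and counts the mock library as a control. The changes in that fit ran from -1.34 for Clca1 to 0.12 for Zg16 and 0.17 for Guca2a. With the organoid line as a block, 0 genes were called in BME by the adjusted rule. In the mock pair of line 682, Clca1 was at 20.3 FPKM untreated and 1.73 in the mock library, and Zg16 at 50.5 and 0.391. On plastic the lines went different ways: Tff3 was at 1238 untreated and 372 with dox in line 560, 4.77 and 0 in line 700, and 0.672 and 64.0 in line 889. Of the same list, 2 genes were higher in BME by the unadjusted rule, against 0.746% of all tested genes. Muc13, a membrane mucin of enterocytes, differed by 3.47 (SE 1.37, unadjusted p 0.0422) and Alpi, an enterocyte alkaline phosphatase, by 1.35 (SE 0.37, unadjusted p 0.0101), and neither passed the adjusted threshold. The part of these goblet and enterocyte genes in the gastric gene changes was not tested.

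The remaining mucins and secreted peptides were close to the limit of detection, where a count of 0 reads allows up to 3. Muc5ac, the mucin of surface pit cells, lies on chromosome 7 from 148974877 to 149005136 (NCBIM37). On plastic it had 0 reads untreated and 6 with dox in line 560, 5 and 31 in line 700, and 1 and 26 in line 889, so that all 3 dox libraries lay above all 3 untreated ones, as was so for 3.62% of the 6738 genes above 0 but below the filter on plastic. The highest of these, 31 reads, is 0.209 FPKM. In BME it had 5 reads untreated and 3 with dox in line 700, 0 and 1 in line 889, and 0 in both libraries of line 682. Muc5ac was below the filter. With no filter on low values its plastic change was 0.17 (SE 0.06), with an unadjusted p of 0.0361 and an adjusted limma p of 0.661. The limit of 3 reads covers counting error only.

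Tff1, the trefoil peptide secreted with Muc5ac, lies on chromosome 17 from 31298341 to 31301998 (NCBIM37). It had 10 reads with dox and 0 without in line 560 on plastic, 4 and 0 in line 889, and 1 and 2 in line 700. In BME the dox library of line 889 had 3 reads and the others 0. With no filter, the plastic change of Tff1 was 0.69 (SE 0.29, unadjusted p 0.0584, adjusted limma p 0.707). Muc6, the gland mucin, lies on chromosome 7 from 148819871 to 148841218 (NCBIM37), 134 kb from Muc5ac, and had 119 reads (1.77 FPKM) in the mock library of line 682 and at most 5 in any other library. Gkn2, on chromosome 6 from 87323359 to 87329488 (NCBIM37), had at most 2 reads in any library.

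**Figure D4:**
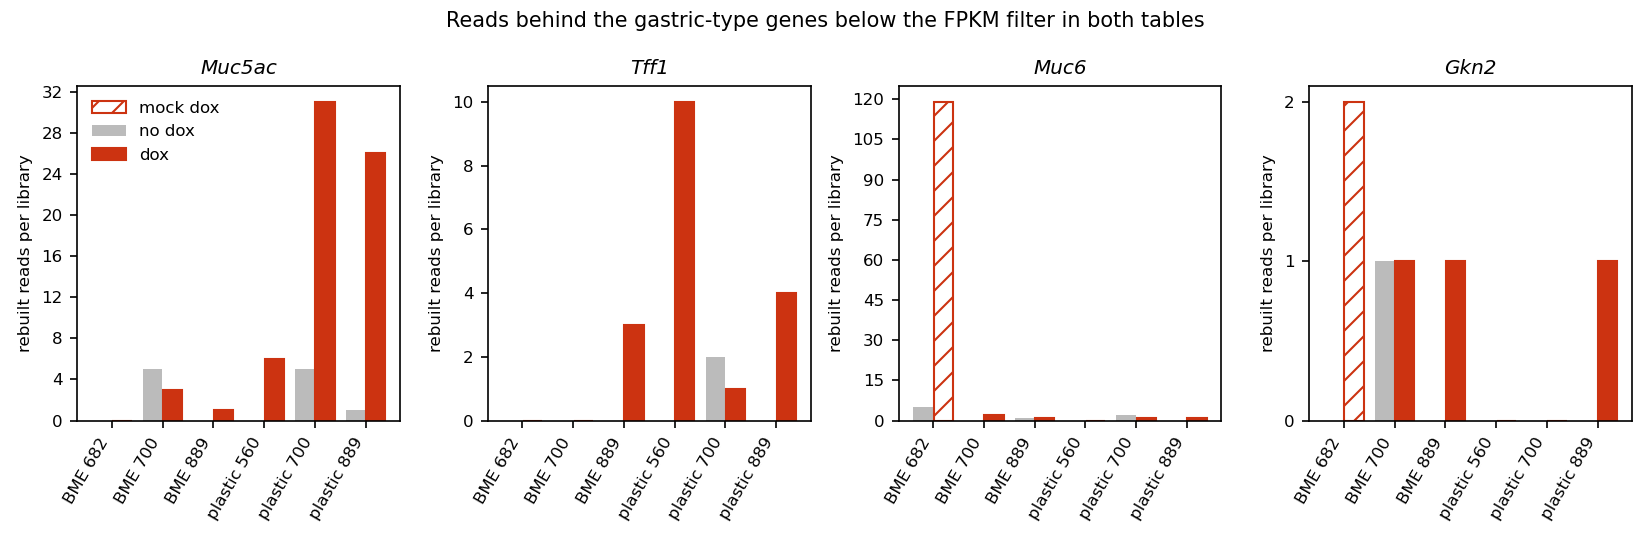
Reads rebuilt from FPKM (vertical axis, starting at 0 and scaled per gene) for the 4 gastric-type genes below the filter in both tables, in each line and environment. Grey bars are untreated, red bars dox and hatched bars the mock dox library of line 682. Muc5ac stands at 6, 31 and 26 reads in the plastic dox libraries against 0, 5 and 1 without dox, and the tallest Muc6 bar, 119 reads, is the mock library.

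Other stomach epithelium genes were detected in part. Of 28 listed genes 25 were in the tables, 12 passed the filter in BME and 9 on plastic, and 0 met an adjusted p under 0.05 in either environment, by limma. At an unadjusted p under 0.05 with a change over 1, 0 were called in BME, against 0.746% of all tested genes upward and 0.208% downward, and 1 was higher on plastic (2.37% of all tested genes), Galnt6, a glycosyltransferase of mucin-type O-glycans (1.19, SE 0.48, unadjusted p 0.0440). The median changes were -0.18 in BME and -0.29 on plastic. Gkn3, the third gastrokine gene, reached 1162 FPKM in the mock library and 947 untreated in line 682, and Pgc, the precursor of pepsin C, was at 111 to 181 FPKM in the BME libraries of lines 682 and 700 but at 0.292 and 1.40 in line 889. On plastic Pgc was at most 0.403 FPKM in any library, line 700 included, and Gkn3 was at 0 to 5.41 FPKM in lines 700 and 889 and at 153 FPKM untreated in line 560 and lower with dox in that line, in a table normalized separately. Psca, a surface protein of gastric and bladder epithelium, ranged from 3.20 to 52.1 FPKM in BME and from 29.6 to 164 on plastic. Some products of other stomach cells were low or at 0, while Slc9a4, a sodium-proton exchanger of parietal cells, was at 7.82 to 32.7 FPKM over the 12 libraries. Gast, the hormone of G cells, and Lipf, the lipase of chief cells, were at 0 in all 12 libraries, and of the proton pump subunits of parietal cells Atp4b reached 0.0510 FPKM and Atp4a 1.64 FPKM, the latter at 1.13 or more in the BME libraries of lines 682 and 700.

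Transcription factors that differ between stomach and intestine were examined next. Cdx2, the intestinal homeobox factor, was at 22.7 to 115 FPKM over the 12 libraries and Hnf4a at 8.92 to 141, and Cdx1, a second intestinal homeobox factor, reached 10.1 in untreated line 700 in BME but was at 0 in both libraries of line 682. Sox2, the stomach factor, was at most 0.156 and Barx1 was listed at 0 throughout. Of 17 listed factors, 15 were tested in BME and 14 on plastic, and 0 passed the adjusted threshold by limma. By the unadjusted rule 0 were called in BME and 1 was higher on plastic (2.37% of all tested genes), Gata6, at 2.08 (SE 0.80, unadjusted p 0.0378, adjusted p not under 0.05). It was at 14.1 FPKM untreated and 94.4 with dox in line 560, at 14.7 and 132 in line 889 on plastic and at 26.9 and 104 in line 889 in BME. In line 700 Gata6 was at 9.18 and 13.5 on plastic and at 10.5 and 10.6 in BME, and in the mock library of line 682 at 12.1.

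On plastic the widest differences of Gata6 with dox were thus in lines 560 and 889. The lines also differed without dox. Gata4, an endoderm factor of stomach and proximal intestine, was at 44.2 to 110 FPKM in all libraries of lines 682 and 700 and at 1.97 to 7.41 in those of lines 560 and 889. Pdx1, a factor of pancreas, antrum and duodenum, was at 2.12 to 5.51 FPKM in lines 682 and 700 and at 0 in lines 560 and 889. Gata4 and Pdx1 were picked after their values were seen, with 4 lines and no test.

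Of the other serrated lesion markers, 13 of 15 were tested in each environment and 0 passed the adjusted threshold by limma. Duoxa2, the maturation factor of an epithelial hydrogen peroxide producing oxidase, was lower in BME by the unadjusted rule (-1.36, SE 0.40, unadjusted p 0.0137), as 0.208% of tested genes were. The control libraries held 4.52 to 14.0 FPKM and the dox libraries 1.89 and 3.23, without overlap, which was so downward for 5.83% of tested genes. On plastic its change was 1.39 (SE 0.82, unadjusted p 0.136), with its highest value, 13.7 FPKM, in the dox library of line 560. With dox in BME, 2 of the list, S100a11 and Plaur, lay above all controls, as 6.33% of tested genes did, and 1 lay below them. Plaur was at 72.2 and 73.6 FPKM with dox and at 28.7 to 56.9 in those controls. It rose by over 0.5 in all 5 dox pairs, as 0.735% of genes tested in both environments did. In both BME dox pairs, 1 gene of the list was higher by over 0.5 and 4 were lower, beside 2.09% and 1.18% of all tested genes. The most abundant of the list were S100a11, a calcium-binding protein, at 2013 to 3423 FPKM in BME and 8917 to 17185 on plastic, then Anxa1, another annexin, and Msln, mesothelin.

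Of the 5 general epithelial genes, 2 keratin genes were higher with dox in BME by the unadjusted rule, which 0.746% of all tested genes met upward. Krt8 was higher by 1.13 (SE 0.22, unadjusted p 0.00186) and Krt19 by 1.03 (SE 0.32, unadjusted p 0.0165). Krt18 had a change of 0.91 (SE 0.25, unadjusted p 0.00911), under the size the rule needs, and on plastic Krt19 differed by -0.95 (SE 0.35, unadjusted p 0.0314). Their adjusted limma p-values were above 0.05. Of the squamous markers of forestomach, which the mouse has beside its glandular stomach, 5 of 8 stayed below 1 FPKM in all BME libraries, and Krt4, a keratin of inner squamous layers, was the highest there at 14.3 to 100.4 FPKM. On plastic the summed level of the list was 109 to 284 FPKM, against 15.4 to 103 in BME, with Krt14 at 3.70 to 198 and Krt4 at 81.9 to 193, in tables normalized separately.

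Across the 12 libraries, after centring log2(FPKM + 1) within each table, the gastric genes did not share one profile. Aqp5 and Vsig1 had the highest Pearson correlation of the 10 pairs among the 5 tested genes, at 0.66, followed by Aqp5 and Ctse at 0.50, and Anxa10 with Aqp5 was the lowest at -0.44. The libraries share lines and each table's normalization, so these values are descriptions. Over the same 11977 genes, the profiles nearest to Aqp5 were those of Syngr1, a vesicle membrane protein (0.98), Hpdl (0.96) and the autophagy gene Atg16l1 (0.95). Those nearest to Vsig1 included Adora1, an adenosine receptor (0.95), and the Golgi protein gene Golm1 (0.95). Ctse was nearest to 1600012H06Rik (0.94), the lipase gene Liph (0.94) and Casp9, an initiator caspase (0.93). Anxa10 was nearest to Gm11545 (0.92), the retinol dehydrogenase gene Rdh14 (0.91) and Stard7 (0.89), and Gkn1 to Tmem184a (0.91), 4732471J01Rik (0.84) and Zfpm1 (0.83).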

How the data were processed

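RNA-Seq was analysed from 12 libraries, grouped by their labels. The submitters' processing notes name kallisto, DESeq2 and the mm9 build, and versions and annotation are not given in the sources used here. The authors deposited FPKM values as 1 table per environment, normalized separately, together with a mean normalized read signal per gene (baseMean). The tables also hold the authors' own fold changes, standard errors, test scores, p-values and adjusted p-values, which were not used. From the deposited FPKM and the mean signal, reads were rebuilt per library, and 83.4% to 88.0% of values under 20 reads came out whole within 0.05. These reads give the depth and the reads behind low genes.

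FPKM values were analysed as log2(FPKM + 1), a scale on which the change of low genes is understated, with a filter of mean FPKM of at least 0.5 per table. Dox (n = 2 in BME, n = 3 on plastic) was compared with control libraries (n = 4, mock included, and n = 3) by limma 3.58.1 in R 4.3.3 (trended eBayes, two-sided, Benjamini-Hochberg over all genes tested), with the interaction of dox and environment fitted over all 12 libraries. The fit was tested on simulated data with the same noise for every gene, no line effect and changes put only into well-expressed genes. That test does not bear on low genes or on genes that differ widely between lines. Same-line libraries deviated together (r of 0.61 and 0.66 in BME and 0.46, 0.61 and 0.25 on plastic), so line numbers were taken as pairs and the organoid line as a block was an alternative. Between different lines r ran from -0.66 to 0.28, the latter for the BME dox library of line 700 with the mock library. In BME the deviations of the 2 dox libraries are exact opposites, so their r values are not independent. The mock pair of line 682 was not checked this way. Other alternatives were a pseudocount of 0.1, no filter, limma-voom on the rebuilt reads, the mock library left out or counted with dox, and each library left out. Values of the lists are described by counts and medians, with no set test. All 10 gastric genes are named. Of each other list, the genes past the adjusted or unadjusted rule and the 3 most abundant were eligible. Markers named for being at or near 0, and Atp4a, Slc9a4 and Cdx1 named beside them, were chosen after their values were seen. So were the 6 intestinal genes lower in both BME pairs, and Gata4, Pdx1 and Plaur. For each gastric gene tested in both tables, the 3 genes with the most similar profile over the 12 libraries were eligible, and 1 of these is not reported here. The gastric genes and the lists were chosen with earlier results of these data known. Gene coordinates come from an NCBIM37 annotation matched by symbol, and promoters and motif shares from RefSeq (GRCm38.p6).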

Additional observations from a re-analysis of the deposited data

Results flagged for a closer look

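Among the 4 BME control libraries, 9 gastric genes were examined for a library standing apart by Dixon's gap ratio, and 2 stood apart. About 0.450 would be expected by chance for independent, normally distributed values. Here line 682 supplied 2 of the 4 libraries and some genes were near 0 reads, so that number is no measure of chance in these data. Muc6 had 119 reads in the mock library of line 682 and at most 5 in the 3 untreated libraries (gap ratio 0.959). Muc5ac had 5 reads in untreated line 700 and 0 in the other 3 (gap ratio 1.00), which lies near the limit that 0 reads allow. With the other 3 at 0 the ratio is 1.00 whatever the remaining value, so no conclusion is drawn from this flag. Aqp5 was higher with dox in both BME pairs and lower in all 3 plastic pairs, and the difference of the changes, plastic minus BME, was -0.72 with an interval that includes 0 (limma interaction, unadjusted p 0.787). The BME pair of line 700 differed by 0.16, with 12669 rebuilt reads untreated and 12657 with dox. The share of all genes with the same split of directions was not computed.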

How the results depend on the processing

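Over 136 recomputed changes of gastric genes, 120 kept their direction, 16 reversed and 0 became called, with adjusted limma p-values from 0.0632 to 1.00. Anxa10 in BME (0.05) became -0.07 with a pseudocount of 0.1, -0.13 by limma-voom, -0.17 with the mock library left out, -0.40 with it counted with dox, -0.18 without the untreated library of line 700 and -1.23 without the dox library of line 889, and reached 1.33 without the dox library of line 700. Aqp5 in BME (-0.16) became 0.78 with the replicate block, 0.32 with the mock library left out, 0.85 with it counted with dox, and ranged from -2.67 without the dox library of line 700 to 2.35 without that of line 889, with 0.57 without the untreated library of line 700. Vsig1 in BME (-0.28) ranged from -0.98 without the dox library of line 700 to 0.42 without that of line 889. On plastic, Gkn1 (0.02) became -0.41 without the dox library of line 700 and -0.35 without the untreated library of line 889, with a highest value of 0.39 without the untreated library of line 700, and Vsig1 (0.33) became -0.21 without the dox library of line 560 and -0.41 without the untreated library of line 889. The causes were not tested. Called over all genes, BME gave 3 genes, 1 with a pseudocount of 0.1, 1 by limma-voom, 0 with the replicate block, 0 with the mock library left out, 0 with it counted with dox, and 0 to 37 without single libraries (37 without the dox library of line 700). Plastic gave 4, 10 with a pseudocount of 0.1, 0 without a filter, 7 with the replicate block, 10 by limma-voom and 0 to 55 without single libraries (55 without the dox library of line 700). The replicate block changed no call of a gastric gene and no call of the interaction fit by the adjusted rule. By the unadjusted rule it added Ctse in BME. Muc5ac, Tff1 and Gkn2 rest on at most 31 reads in any library, which limits the precision of their changes, and in the fit with no filter Muc5ac, Muc6, Tff1 and Gkn2 were not called.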
